A study of Mus musculus with 8 samples.

Results

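Transcript levels and open chromatin were examined for 8 genes, Slamf1, Cd48, Procr, Cd34, Flt3, Ly6a, Esam and Cd27, that encode the surface proteins by which mouse haematopoietic stem cells are separated from multipotent progenitors. They were taken by name, through their Ensembl gene IDs, and are 8 of the 45706 genes in the expression files. All 8 had counts above 0 in every library and passed the filter on low counts, which left 16258 genes. The cells were LSK cells, which lack lineage antigens and carry Sca-1 and Kit, sorted by flow cytometry from bone marrow of C57BL/6 mice. RNA-seq and ATAC-seq, in which a transposase cuts accessible DNA, each had 2 libraries labelled Hira KO and 2 labelled WT. The Hira KO genotype lacks the histone chaperone HIRA, which deposits the histone variant H3.3 outside DNA replication. The driver of the deletion, the deleted exons, any agent given, the ages and the number of mice per library are not given in the sources used here. The labels do not say whether the libraries of a group came from separate mice, so p-values measure the spread between these libraries, which for labelled Hira KO may be technical.

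The LSK gate holds a small fraction of long-lived stem cells and a larger body of multipotent progenitors. Stem cells carry CD150 (Slamf1), the endothelial protein C receptor (Procr) and the junction protein ESAM, and they lack CD48, CD34 and FLT3 in the adult. Cells that leave the stem cell state gain CD34 and CD48, and those that turn towards the lymphoid lineages gain the cytokine receptor FLT3 and more CD27, while Sca-1 (Ly6a) is carried by the whole gate. In bulk RNA a smaller share of cells of a type and less RNA per cell cannot be told apart.

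The targeted gene did not follow the labels. Hira had 24.4 and 23.3 CPM (counts per 1000000, scaled to library size) in the libraries labelled Hira KO, against 16.5 and 17.2 CPM in those labelled WT. Its log2 fold change of 0.50 (95% interval 0.05 to 0.95) was not called, with an adjusted p of 0.18 by edgeR's quasi-likelihood test. The counts cover the whole gene and do not show single exons. All 8 file names, and the peak names inside all 4 ATAC lists, carry the genotype opposite to that in the sample's title. Every direction below therefore goes by the sample titles and would turn round if these were exchanged. The RNA libraries held 16.6 to 19.8 M expected counts, of which 40.8% to 53.1% fell on mitochondrially encoded genes. Xist had 232764 and 171024 counts in the libraries labelled Hira KO and 169234 and 1470 in those labelled WT. The Y-linked gene Ddx3y had 2 and 1 counts in labelled Hira KO and 1 and 906 in labelled WT, so labelled WT replicate 2 stood apart from the other 3 and did not come from the same mouse as labelled WT replicate 1.

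The marker genes fell into an abundant set of 5 and a scarce set of 3 with no overlap between the sets within a group. On the TPM scale, which divides by transcript length and so can be compared between genes, Cd27 was the highest in the labelled Hira KO libraries with 158 ± 42.8 TPM (SD, n = 2), followed by Cd34 with 114 ± 13.3 and Flt3 with 68.3 ± 4.58. Ly6a with 50.4 ± 3.87 and Cd48 with 48.0 ± 18.5 came next and overlapped each other. The scarce set was Procr with 5.55 ± 1.22 TPM, Slamf1 with 3.66 ± 1.41 and Esam with 3.03 ± 0.0707, and Slamf1 and Esam overlapped. In the labelled WT libraries Cd27 with 91.9 ± 19.7 TPM and Cd34 with 74.1 ± 4.90 again led (SD, n = 2). Cd48 with 53.5 ± 9.34 TPM stood above Flt3 with 27.1 ± 2.43 and Ly6a with 18.8 ± 5.07 in labelled WT. Slamf1 with 3.79 ± 1.38 TPM overlapped Procr with 2.98 ± 0.672, and Esam was lowest with 0.875 ± 0.0212. Thus Flt3 and Ly6a ranked above Cd48 by their means in labelled Hira KO and below it in labelled WT. The 3 genes that stem cells carry and most progenitors lack, Slamf1, Procr and Esam, were the 3 lowest in both groups.

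**Figure D1:**
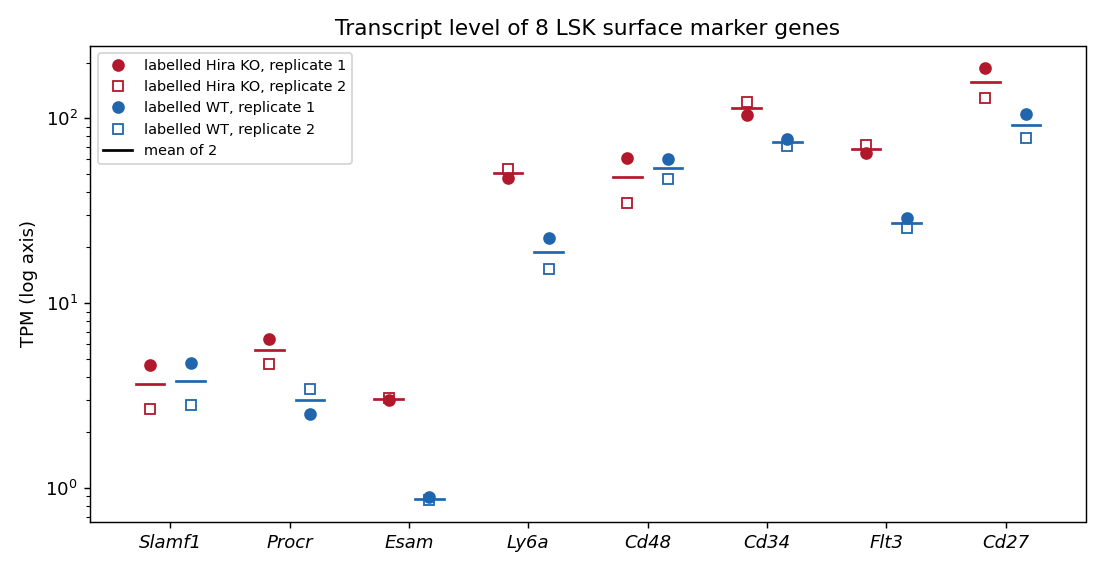
TPM of each marker gene on a log axis, with 1 point per library, labelled Hira KO in red left of labelled WT in blue, and a line at the mean of 2 libraries. Flt3, Ly6a and Esam show the widest gaps between groups, while the points of Slamf1 and Cd48 overlap.

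Ly6a, the marker of the whole gate, rose. Of the 3 stem cell markers 0 were called, where Esam and Procr had higher values without passing the test and Slamf1 overlapped between the groups. Ly6a had 23.1 and 33.6 CPM in the libraries labelled Hira KO, against 10.3 and 8.86 CPM in those labelled WT. Both labelled Hira KO libraries lay above both labelled WT libraries. On the log2 scale the change was 1.57 with an SE of 0.25 (95% interval 0.98 to 2.16), or 2.96-fold, with an adjusted p of 0.0382 by edgeR's quasi-likelihood test with Benjamini-Hochberg adjustment over all genes. Ly6a encodes Sca-1, a protein used to sort these cells, so cells of both groups had passed a gate on the protein before the RNA was measured. Kit, the receptor for stem cell factor and the other antigen of that gate, had 330.4 and 327 CPM in labelled Hira KO, against 274 and 351 CPM in labelled WT, which overlapped.

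Esam encodes an adhesion molecule of endothelial junctions that also marks stem cells. It had 3.73 and 4.87 CPM in labelled Hira KO, against 1.11 and 1.42 CPM in labelled WT, from 72 and 81 reads in labelled Hira KO and 21 and 26 in labelled WT. The groups did not overlap. Its log2 fold change of 1.76 was the largest of the 8 genes, with an SE of 0.45 and an adjusted p of 0.0824 in edgeR, and it was not called. Procr encodes a receptor that binds protein C on endothelium and is among the most selective stem cell markers of the marrow. It had 6.53 and 6.91 CPM in labelled Hira KO, against 1.91 and 4.43 CPM in labelled WT. The labelled WT libraries lay below the others but far from each other, with 36 and 81 reads, and the log2 fold change of 1.08 (SE 0.45) had an adjusted p of 0.206 in edgeR.

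Slamf1 encodes CD150, the first of the SLAM receptors used to define stem cells. It had 12 and 10.1 CPM in labelled Hira KO, against 11.6 and 9.85 CPM in labelled WT, so the groups overlapped almost entirely. The log2 fold change was 0.05 with a 95% interval of -0.55 to 0.64, and the adjusted p was 0.937 in edgeR. That interval spans 0.684-fold to 1.56-fold, so the changes seen for Ly6a, Flt3 and Cd27 lie outside it, and a change of up to 1.56-fold does not. In TPM the 2 libraries numbered 2 were the lower of each group, with 4.65 and 2.66 TPM in labelled Hira KO and 4.77 and 2.82 TPM in labelled WT. Those same libraries had the higher mitochondrial shares, 53.1% and 51.7%, against 42.9% and 40.8% in the libraries numbered 1. Without the mitochondrially encoded genes the log2 fold change of Slamf1 was again 0.05, with an adjusted p of 0.935 in edgeR.

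Of the markers gained on leaving the stem cell state, Flt3 and Cd27 rose, Cd34 had higher values without passing the test, and Cd48 was level. Flt3, the receptor tyrosine kinase of lymphoid-primed progenitors, had 180 and 267 CPM in labelled Hira KO, against 77.3 and 89.7 CPM in labelled WT. The lowest labelled Hira KO library held more than either labelled WT library. On the log2 scale the change was 1.42 with an SE of 0.21 (95% interval 0.92 to 1.92), or 2.68-fold, with an adjusted p of 0.0347 in edgeR. Cd27, a receptor of the tumour necrosis factor family that is also found on lymphocytes, had 179 and 174 CPM in labelled Hira KO, against 97.1 and 95.1 CPM in labelled WT. In CPM its libraries agreed most closely within groups, and a log2 change of 0.88 with an SE of 0.14 (95% interval 0.56 to 1.20), or 1.84-fold, had an adjusted p of 0.0363 in edgeR. In TPM they lay further apart, at 188 and 128 in labelled Hira KO and 106 and 78 in labelled WT.

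Cd34 encodes a sialomucin that appears as cells leave the long-lived stem cell state in the adult mouse. It had 193 and 254 CPM in labelled Hira KO, against 136 and 156 CPM in labelled WT. The groups did not overlap, but the log2 change of 0.61 with an SE of 0.18 (95% interval 0.20 to 1.03) had an adjusted p of 0.106 in edgeR. Cd48, the SLAM family receptor that stem cells lack, had 46.9 and 36.0 CPM in labelled Hira KO, against 44.2 and 45.1 CPM in labelled WT. Labelled Hira KO replicate 1 was the highest of the 4 libraries and replicate 2 the lowest. The log2 fold change was -0.11 (95% interval -0.54 to 0.33, or 0.686-fold to 1.26-fold), with an adjusted p of 0.781 in edgeR.

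Across the 8 genes, 3 were called higher in labelled Hira KO (Flt3, Ly6a and Cd27) and 0 lower by edgeR, and DESeq2 likewise called those 3 higher and 0 lower. At an unadjusted p under 0.05 edgeR had 6 higher and 0 lower, where 3703 of all 16258 genes tested passed in either direction. Of all genes tested, 1.8% were called, 1.32% as higher and 0.48% as lower. The groups' CPM did not overlap for 6 of the 8 genes, all higher in labelled Hira KO, where 56.1% of all genes did not overlap and 28.3% did so in that direction. The log2 fold change was above 0 for 7 of 8 genes and their median was 0.98, beside a median of 0.01 over all genes tested. The called genes were the marker of the whole gate (Ly6a), the marker of lymphoid-primed progenitors (Flt3) and Cd27. None of Slamf1, Procr and Esam, and neither Cd34 nor Cd48, was called in this fit, and no difference between stem cell and progenitor markers was tested. All 3 calls were lost when a labelled WT library was left out. Without labelled WT replicate 1 the adjusted p in edgeR was 0.395 for Flt3, 0.395 for Ly6a and 0.418 for Cd27, and without replicate 2, the library with Ddx3y reads, it was 0.281, 0.349 and 0.372 for the same genes. The fold changes kept their size, at 1.52 for Flt3, 1.45 for Ly6a and 0.85 for Cd27 on the log2 scale without labelled WT replicate 2. Cd27 was also not called with limma on TPM or with library totals as the only scaling.

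**Figure D2:**
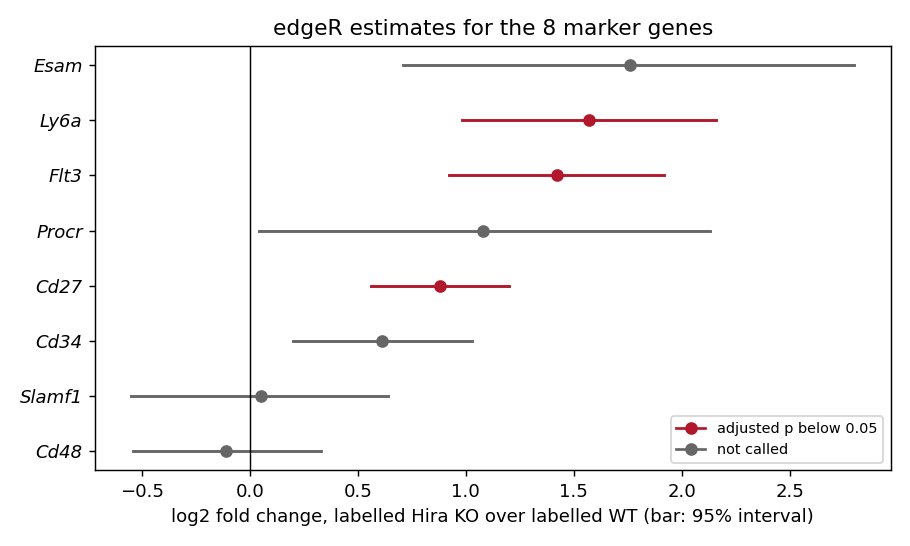
edgeR log2 fold change, labelled Hira KO over labelled WT, on the x axis for each gene, with bars for 95% intervals and red for an adjusted p below 0.05. Esam has the largest estimate at 1.76 and a wide bar, while the bars of Slamf1 and Cd48 cross 0.

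Ratios of marker pairs within a library do not depend on library size and were set out as a further reading of the balance between markers. With 2 libraries a group, an exact 2-sided permutation test cannot give a p below 0.33. The log2 ratio of Slamf1 to Cd48, the classical SLAM pair, was -3.72 and -3.71 in labelled Hira KO, against -3.65 and -4.05 in labelled WT, and the groups overlapped. The log2 ratio of Slamf1 to Flt3 was -3.81 and -4.75 in labelled Hira KO, against -2.59 and -3.17 in labelled WT. The difference of -1.40 came with no overlap and reached the smallest exact p of 0.33.

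The log2 ratio of Esam to Cd48 went the other way, at -4.36 and -3.50 in labelled Hira KO, against -6.08 and -5.77 in labelled WT, a difference of 1.99 with an exact permutation p of 0.33. The log2 ratio of Cd27 to Ly6a was 1.98 and 1.27 in labelled Hira KO, against 2.24 and 2.36 in labelled WT, a difference of -0.67 with the same exact p. Neither of these overlapped. Procr over Flt3 and Procr over Cd34 overlapped, with differences of -0.44 and 0.29 and an exact permutation p of 0.667 each. Stem cell markers over progenitor markers were therefore higher for 1 pair without overlap (Esam over Cd48), lower for 1 (Slamf1 over Flt3) and overlapping for the other 3. Without 1 library in turn, the difference ranged from -1.87 to -0.93 for Slamf1 over Flt3, from 1.56 to 2.42 for Esam over Cd48, from -1.03 to -0.31 for Cd27 over Ly6a and from -0.76 to -0.11 for Procr over Flt3. It changed sign for Procr over Cd34 (-0.06 to 0.63) and for Slamf1 over Cd48 (-0.06 to 0.34). The exact permutation test cannot pass 0.05 with these numbers of libraries.

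**Figure D3:**
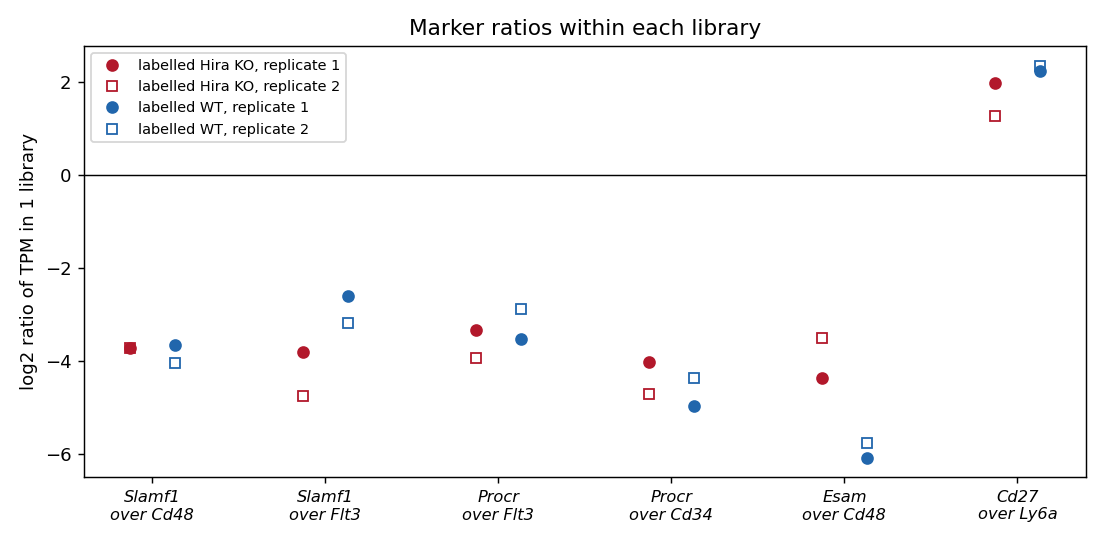
log2 ratio of the TPM of 2 marker genes in the same library, with 1 point per library and labelled Hira KO in red left of labelled WT in blue. Esam over Cd48 lies higher in labelled Hira KO, Slamf1 over Flt3 lies lower, and Slamf1 over Cd48 overlaps.

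Other surface genes of the same cells were counted from lists of SLAM receptors, stem cell surface proteins and progenitor surface proteins. Of the SLAM family without Slamf1 and Cd48, 6 of 7 genes were tested and 0 were called in either direction by edgeR, where 1 was higher and 2 lower at an unadjusted p under 0.05 and DESeq2 called 1 higher and 1 lower. Their median log2 fold change was -0.31. Cd84 had a log2 fold change of 0.69 (adjusted p 0.0654 in edgeR), and Slamf6 one of -1.10 (adjusted p 0.1 in edgeR). Of 27 other stem cell surface genes, 4 rose and 1 fell, with a median of 0.15. Robo4, a guidance receptor of stem cells and endothelium, rose by 1.77 on the log2 scale and Cd93 by 0.93. Alcam also rose, named after its values were seen, with 39.2 and 35.3 CPM in labelled Hira KO against 18.3 and 19.3 CPM in labelled WT.

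Lifr, the receptor of leukaemia inhibitory factor, was the stem cell surface gene that fell, with 2.44 and 2.89 CPM in labelled Hira KO against 8.31 and 10.3 CPM in labelled WT. Of 18 other progenitor surface genes, 1 rose and 1 fell, with a median of 0.01. Csf3r, the receptor of granulocyte colony-stimulating factor, rose by 1.04 on the log2 scale (adjusted p 0.0427 in edgeR). Fcgr2b, an inhibitory receptor for immunoglobulin G, had 10 and 10.6 CPM in labelled Hira KO, against 37.5 and 33.0 CPM in labelled WT.

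Transcripts of nuclear and cytoplasmic proteins typical of stem cells gave a further 14 genes, of which 2 rose and 1 fell, with a median log2 fold change of 0.97. Meis1 rose by 1.58 and Hlf by 2.01 on the log2 scale, both transcription factors of the stem cell programme, with adjusted p of 0.0167 and 0.018 in edgeR. Gda, guanine deaminase, had a log2 fold change of -1.47 (adjusted p 0.0462 in edgeR). Their summed TPM was 261 and 255 in labelled Hira KO, against 117 and 103 in labelled WT. Of 10 transcripts of lymphoid-primed progenitors 1 rose, Ighm, the constant region of the immunoglobulin heavy chain mu, and their median was 0.06. At an unadjusted p under 0.05 edgeR had 4 of these 10 higher and 1 lower, and DESeq2 called 1 higher and 0 lower. Dntt, the template-independent DNA polymerase of antigen receptor joining, had a log2 fold change of 0.58 (adjusted p 0.0946 in edgeR) and was not called. Whether this list and Flt3 changed together was not tested.

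Markers of cells that the gate should leave out were read for their levels beside these results. Endothelial cells also carry Esam, Procr, Cd34 and Ly6a. Of 12 endothelial markers 10 were tested, 1 rose (Robo4) and 2 fell. Their summed TPM was 106 and 83.8 in labelled Hira KO, against 89.8 and 80 in labelled WT. The defining endothelial cadherin Cdh5 had 18 and 14 reads in labelled Hira KO, against 137 and 119 in labelled WT, Stab2 also fell, and Lyve1 and Cldn5 were at 0 in at least 1 library. Emcn, a sialomucin of venous endothelium and stem cells, went the other way, with 20.8 and 29.3 CPM in labelled Hira KO against 10.5 and 13.3 CPM in labelled WT (log2 fold change 1.07, adjusted p 0.0723 in edgeR). Of the 10 tested, 5 lay above 0 and 5 below, and DESeq2 called 3 higher and 2 lower. The part of endothelial cells in the values of Ly6a, Esam, Procr and Cd34 was not tested.

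B and plasma cell markers summed to 260.4 and 135 TPM in labelled Hira KO, against 106 and 65.5 TPM in labelled WT, and of 7 tested 1 rose. That gene, Jchain, which joins secreted immunoglobulin, had 192 and 125 CPM in labelled Hira KO, against 13.1 and 7.17 CPM in labelled WT. The plasma cell antigen Sdc1 had 4.71 and 5.83 CPM in labelled Hira KO, against 3.92 and 4.05 CPM in labelled WT. Lymphocytes carry Cd27 and Cd48, and the part of Jchain-bearing cells in the rise of Cd27 was not tested.

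T and NK cell markers summed to 145 and 45.2 TPM in labelled Hira KO, against 157 and 110.2 TPM in labelled WT. Most of this was Nkg7 alone, with 137 and 34.1 TPM in labelled Hira KO against 149 and 104 TPM in labelled WT. Cd3e had 0.48 and 1.25 TPM in labelled Hira KO, against 1.88 and 1.04 TPM in labelled WT. Of the 6 T and NK cell genes tested 1 rose, Cd4, which was also the 1 of 10 lineage antigens that rose. The lineage antigens summed to 224 and 208 TPM in labelled Hira KO, against 211 and 155 TPM in labelled WT. Most of this was Ptprc, with 195 and 184 TPM in labelled Hira KO against 175 and 129.5 TPM in labelled WT. Ptprc encodes CD45, which blood cells inside the gate carry too, and counts over the whole gene do not separate its isoforms. This sum is therefore no measure of cells outside the gate. Itgam, the myeloid integrin among the lineage antigens, had 30.3 and 58.1 CPM in labelled Hira KO, against 18.3 and 17.3 CPM in labelled WT (log2 fold change 1.31, adjusted p 0.0787 in edgeR), and DESeq2 called it higher. The summed levels of the granulocyte and monocyte list and of the erythroid list were lower in labelled Hira KO. The 8 genes of granulocytes and monocytes summed to 2400 and 1140 TPM in labelled Hira KO, against 5370 and 2710 TPM in labelled WT, and 2 fell, Lcn2 and Ly6c2, with all 8 fold changes below 0. The 7 erythroid genes summed to 76.2 and 54.5 TPM in labelled Hira KO, against 163 and 133 TPM in labelled WT, with 2 fold changes above 0 and 5 below. Mast cell and basophil genes summed to 45.2 and 33.6 TPM in labelled Hira KO, against 97.8 and 59.8 TPM in labelled WT. Dendritic cell genes summed to 10.5 and 10.2 TPM in labelled Hira KO, against 18.7 and 20.5 TPM in labelled WT, and megakaryocyte genes to 55.8 and 24.4 TPM in labelled Hira KO, against 75.6 and 20.2 TPM in labelled WT. In these 4 lists, erythroid, mast, dendritic and megakaryocyte, edgeR called 0 genes. At an unadjusted p under 0.05 it had 2, 4, 3 and 0 lower and 0 higher in that order, and DESeq2 called 1, 2, 1 and 0 lower. The part of these cells in the higher Flt3, Ly6a and Cd27 was not tested.

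For each marker the gene with the most similar course over the 4 RNA libraries was sought among up to 7920 well-expressed genes, by the root mean square difference of log2 CPM after centring. Flt3 lay nearest to Rtp4 (0.054 log2 units), which had 14.9 and 23.3 CPM in labelled Hira KO against 6.09 and 7.60 CPM in labelled WT. Ly6a lay nearest to Thsd1 (0.08), Esam to Adamts6 (0.074), Cd27 to Mdfic (0.018), Cd34 to Tmem176b (0.027) and Procr to Rnf150 (0.19). Slamf1 lay nearest to the ribosomal protein gene Rps21 (0.015) and Cd48 to Hnrnpa1 (0.011), a splicing factor gene. With 4 libraries such a likeness is a description of these libraries.

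The assignment of reads to genes was uncertain by few reads. The standard deviation that RSEM gives for the assignment of a gene's reads was 0 for Cd48, Procr and Esam in every library, and at most 6.64 reads for Slamf1, 4.47 for Cd34 and 0.62 for Ly6a. The mean transcript length that RSEM weights by isoform varied for Cd34, with 2568 and 2155 bases in labelled Hira KO and 2518 and 2427 in labelled WT, and for Procr, with 1506 and 1601 in labelled Hira KO and 1220 and 1506 in labelled WT. TPM divides by this length, whereas the edgeR test uses counts. The bounds that RSEM gives for the TPM of Esam were 2.62 to 4.71 and 2.66 to 4.71 in labelled Hira KO. In labelled WT they were 0.866 to 2.58 and 0.833 to 2.32. For Procr they were 5.1 to 7.6 and 3.9 to 5.83 in labelled Hira KO. In labelled WT those of Procr were 1.78 to 4.08 and 2.75 to 4.59, so the groups overlapped. The SDs and ratios of TPM above do not include these bounds. Neither the labels nor the files say whether strand was kept, so reads of the overlapping annotated genes Gm16897 at Cd34, Gm26597 at Flt3, Gm28068 at Ly6a and E130112N10Rik and Mir8113 at Cd27 cannot be told apart from those of the markers.

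Open chromatin near the marker genes was called most often at Flt3 and least at Slamf1. The peak lists held 92839 and 73715 peaks in labelled Hira KO, against 79565 and 63422 in labelled WT. Peaks that overlapped across lists were merged, and 48 merged regions lay within 10 kb of the 8 gene bodies. A longer gene has a wider window, and the counts were not divided by its length. The gene body ran 69748 bases from the start site for Flt3 and 22471 for Cd34. Of these, 45 and 35 were called in the labelled Hira KO libraries, against 34 and 20 in the labelled WT libraries. Labelled WT replicate 2 had the shortest list of all and the fewest regions here. All 4 libraries called 18 of the 48 regions, 4 were called in both labelled Hira KO libraries and neither labelled WT library, and 0 in both labelled WT libraries alone. Near the other genes tested, 43.7% of regions were called in all 4 libraries, 5.04% in labelled Hira KO alone and 3.06% in labelled WT alone. Over all 112479 regions of the genome these shares were 40.7%, 5.64% and 2.77%.

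**Figure D4:**
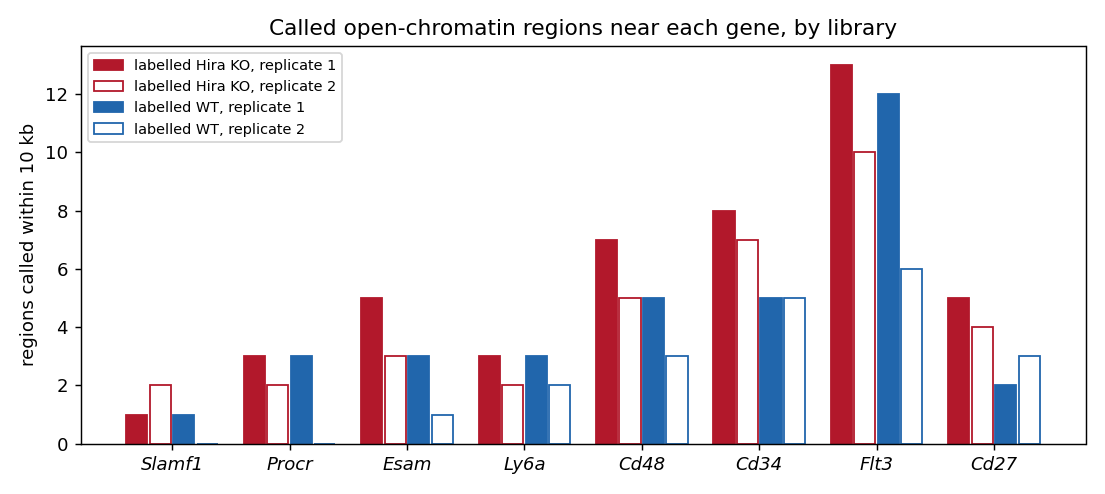
Number of merged open-chromatin regions within 10 kb of each gene that each ATAC library called, with labelled Hira KO bars in red left of labelled WT bars in blue. Flt3 has the most regions, with 13 and 10 called in labelled Hira KO and 12 and 6 in labelled WT, and Slamf1 the fewest. Counts are not scaled to gene length.

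Promoters of 3 genes show how differently these genes present to the transposase. Those of Flt3 and Cd34, where all 4 libraries called a region, are set beside that of Slamf1, where no library did. Each sequence gives the 250 bases before the start site, 5′ to 3′ on the gene's strand, from RefSeq on GRCm38.p6, with CpG dinucleotides in capitals. The Flt3 window lies at chr5:147400490-147400739 on the minus strand, the Cd34 window at chr1:194938571-194938820 on the plus strand and the Slamf1 window at chr1:171766882-171767131 on the plus strand.
Flt3: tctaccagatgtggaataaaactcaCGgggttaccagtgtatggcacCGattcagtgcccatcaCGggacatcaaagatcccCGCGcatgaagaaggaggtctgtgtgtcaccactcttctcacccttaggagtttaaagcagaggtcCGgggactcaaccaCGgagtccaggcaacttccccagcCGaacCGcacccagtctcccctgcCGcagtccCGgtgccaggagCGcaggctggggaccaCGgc
Cd34: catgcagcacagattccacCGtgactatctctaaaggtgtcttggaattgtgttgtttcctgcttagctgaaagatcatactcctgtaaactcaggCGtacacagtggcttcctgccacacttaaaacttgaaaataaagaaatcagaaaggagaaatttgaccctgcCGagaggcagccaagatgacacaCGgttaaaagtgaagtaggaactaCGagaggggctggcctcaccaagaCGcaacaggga
Slamf1: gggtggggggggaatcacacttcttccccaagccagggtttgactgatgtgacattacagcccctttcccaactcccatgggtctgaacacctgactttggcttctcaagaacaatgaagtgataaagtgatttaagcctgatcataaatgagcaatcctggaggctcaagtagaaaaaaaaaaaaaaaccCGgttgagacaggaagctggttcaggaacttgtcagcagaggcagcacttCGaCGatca
The Flt3 window held 13 CpG dinucleotides and was 59.2% GC, and 219 of its bases lay inside a called region. The Cd34 window held 6 CpG and was 46.4% GC, with 225 bases inside a called region. The Slamf1 window held 3 CpG and was 47.2% GC, with 0 bases inside a called region. Among windows not shown, that of Procr held 13 CpG and was 61.6% GC, with 0 bases inside a called region. That of Cd48 held 4 CpG and was 46.0% GC, with 250 bases inside a region that labelled WT replicate 2 did not call. The Cd48 window precedes the listed start site but lies inside the gene body, which begins at chr1:171681245. That of Cd27 held 5 CpG and was 56.0% GC, with 0 bases inside one. Openness therefore did not follow CpG content over these windows. Over 27019 promoters of the same length the medians were 6 CpG and 52.0% GC.

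Short motifs of blood transcription factors were searched on both strands of the 6 promoters with a RefSeq entry. The GATA motif TGATAA was found 130 bases before the Slamf1 start site and is held by 8.16% of all promoters. The RUNX motif TGTGGT was found 76 bases before the listed Cd48 start site, inside the gene body (14.2% of promoters). The E-box CAGCTG was found 34 bases before the start site of Procr (12.8%). AGATAA, held by 10.3% of promoters, the ETS-type motif GAGGAA (23.1%) and TATAAA (13%) were in none of the 6 windows. These matches describe letters in a window and not binding.

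Flt3 had 14 regions within 10 kb, of which 6 were called in all 4 libraries. The region at its start site, chr5:147399929-147400708, ranked highest among them. The authors' fold enrichment there was 39.16 and 24.02 in the labelled Hira KO lists, against 16.74 and 9.85 in the labelled WT lists. These values placed it at the percentiles 91.8 and 84.2 of the labelled Hira KO lists, and 77.7 and 62.1 of the labelled WT lists. Fold enrichments and ranks belong to each list and show no change between lists of different length. The region inside the gene at chr5:147354253-147354573 was called in both labelled Hira KO lists, with fold enrichments of 3.73 and 7.21, and in neither labelled WT list.

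Cd34 had 8 regions, of which 4 were called in all libraries. Its start site region, chr1:194938596-194939175, had fold enrichments of 16.78 and 15.44 in the labelled Hira KO lists, against 12.12 and 12.14 in the labelled WT lists. A region inside the gene, chr1:194957113-194957407, was called in labelled Hira KO alone, with fold enrichments of 2.56 and 4.80 near the bottom of those lists. Cd27 had 6 regions, and the strongest, chr6:125231016-125232413, lay 4614 bases past its start site, just beyond the gene's end. Its fold enrichment was 24.94 and 13.04 in the labelled Hira KO lists, against 11.16 and 7.22 in the labelled WT lists. A region called in labelled Hira KO alone lay outside the gene body at chr6:125222069-125222638, with fold enrichments of 19.58 and 3.77. No region covered the listed start site of Cd27, although its transcript was the most abundant of the 8.

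**Figure D5:**
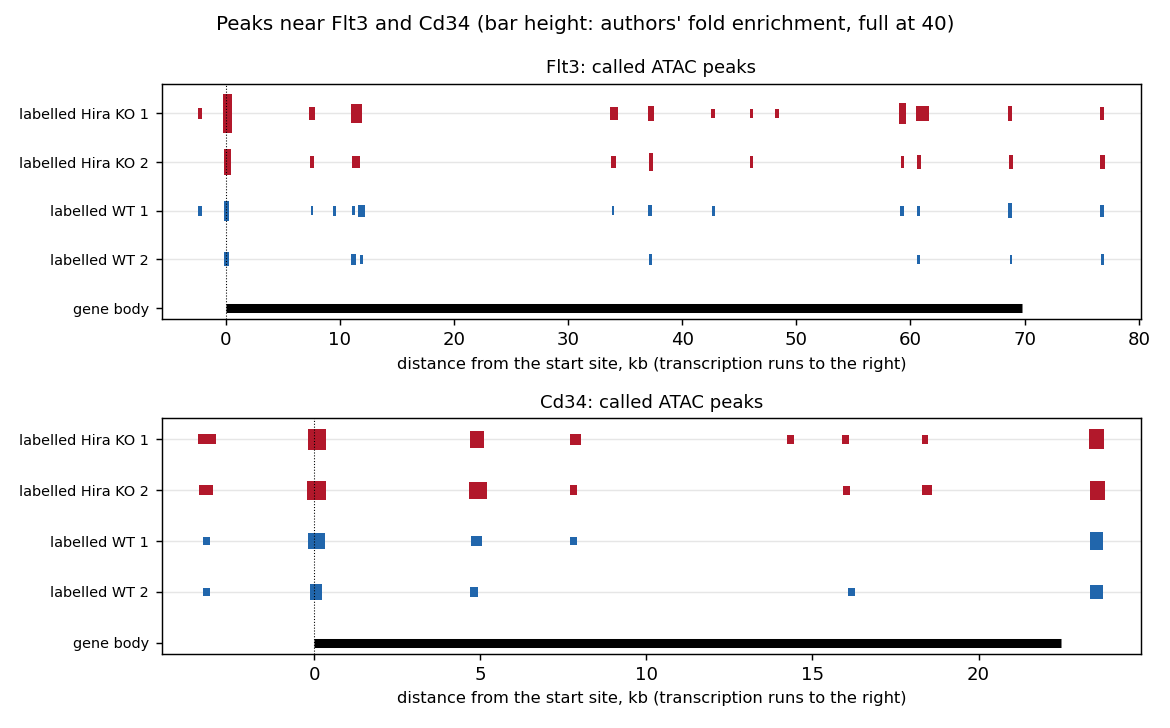
Called ATAC peaks around Flt3 and Cd34 by distance from the start site in kb, with 1 row per library, labelled Hira KO above labelled WT, and bar height for the authors' fold enrichment. Both genes have a peak at the start site in all 4 libraries, and each has a region inside the gene that only the labelled Hira KO lists hold in both libraries.

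Among the other genes, Cd48 had 7 regions and 3 in all libraries. The strongest, chr1:171698957-171699414, lay inside the gene with fold enrichments of 20.75 and 10.98 in the labelled Hira KO lists, against 12.51 and 11.16 in the labelled WT lists. Ly6a had 3 regions, 2 of them in all libraries, and the higher ranked, chr15:74992718-74993135, had fold enrichments of 10.26 and 6.52 in the labelled Hira KO lists, against 9.81 and 7.88 in the labelled WT lists. Esam had 5 regions and 1 in all libraries, at chr9:37544441-37545182. A region at the low-coordinate boundary of Esam, chr9:37527899-37528183, was called in labelled Hira KO alone with fold enrichments of 3.96 and 3.77. Procr had 3 regions and Slamf1 2, with 0 in all libraries for either gene. The highest ranked of Procr, chr2:155755772-155756085, was called in all lists but that of labelled WT replicate 2. The highest ranked of Slamf1, chr1:171773081-171773568, was called in labelled Hira KO replicate 2 alone, with a fold enrichment of 8.24. No region covered the listed start site of Procr or Slamf1, 2 of the 3 scarcest transcripts.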

How the data were processed

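RNA-seq and ATAC-seq libraries were grouped by their titles. Per the labels' protocols, a NuGEN kit amplified the RNA before library construction. GRCm38 and the tools STAR 2.5.3a, RSEM 1.3.0, Bowtie2 2.2.9, MACS2 2.1.1 and Trim Galore 0.4.5 come from the submitters' processing notes, without their roles. The authors deposited expected counts, which are estimated reads per gene without normalization, under column headers as RSEM writes them. The TPM deposited by the authors are scaled by length and library. The deposited peak lists, 1 per library, give the authors' fold enrichment (a ratio), score and significance for each peak. Significance is deposited as a -log10 p-value and as a -log10 q-value. Read depth behind the peaks and treatment of the transposase offset are not given in the sources used here.

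A symbol was found for 45143 of the 45706 gene IDs. Rounded expected counts entered edgeR 4.0.16 under R 4.3.3 (TMM, filterByExpr, robust quasi-likelihood F test, genotype label as the only term), with Benjamini-Hochberg adjustment over all genes and calls below 0.05. SEs and 95% intervals came from the F statistic. Depth limits genes of few reads most, and TPM has no depth of its own. Replicates differed by more than sampling noise (chi-square per gene 74.8 in labelled Hira KO and 54.6 in labelled WT). Peaks overlapping by 1 bp were merged, and positions came from RefSeq on GRCm38.p6. On counts simulated for this comparison (15707 genes), edgeR called 2% of 50 genes changed 1.5-fold, 32% changed 2-fold, 84% changed 4-fold and 100% changed 8-fold, and 13 of its 122 calls were unchanged genes. The markers and lists were chosen with earlier results of these data known. Named were the 8 markers, Hira and Kit, up to 4 genes per list by p, 1 most similar gene per marker among those whose mean log2 CPM reached 3, and, per marker, the region of highest mean rank and those of 1 group. Alternatives were DESeq2 1.42.0, limma 3.58.1 on log2(TPM + 1) or log2(TPM + 0.1), other scalings and filters, a replicate block, other distances and overlaps, and each library left out. Results of some listed genes are not reported here.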

Additional observations from a re-analysis of the deposited data

How the results depend on the processing

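Over 13 alternatives Flt3 was called in 11 (log2 fold change 1.10 to 1.66), Ly6a in 11 (1.27 to 1.79), Cd27 in 8 (0.77 to 0.91), Esam in 3 (1.10 to 1.93), Cd34 in 2 (0.40 to 0.78), and Procr, Slamf1 and Cd48 in 0. The number of markers called higher was 5 with no filter on low counts and 0 to 5 with a library left out, and 0 were called lower throughout. The direction of Slamf1 reversed with library totals only (-0.02), limma on log2(TPM + 1) (-0.05) and on log2(TPM + 0.1) (-0.06), and with a library left out (-0.11 and -0.08 among -0.11 to 0.16), and that of Cd48 with a library left out (0.06 among -0.33 to 0.06).

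Genes called higher and lower numbered 777 and 508 with DESeq2, 494 and 283 with library totals only, 1206 and 1017 with no filter, 374 and 152 at 1 CPM or more in every library, 392 and 262 with limma on log2(TPM + 1), 376 and 246 on log2(TPM + 0.1), beside 214 and 78. Leaving out a library gave 1 to 1657 higher and 1 to 1888 lower, the low counts without a labelled WT library. With the replicate number as a block the counts were 368 and 169. Same-numbered deviations had a correlation of 0.022 over genes, while both libraries numbered 2 had the higher mitochondrial shares. Whether same-numbered libraries shared a batch was not tested. The block changed the call of none of the 8 markers.

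SLAM and other surface genes called higher numbered 9 with DESeq2, 3 with library totals only, 11 with no filter and 2 with limma at either pseudocount, and those lower 5 with DESeq2 and 6 with no filter. Leaving out a library gave 0 to 13 higher and 0 to 11 lower. The difference in the log2 ratio of Esam to Cd48 was 1.3 with a pseudocount of 1 TPM and 1.56 to 2.42 with a library left out. Leaving out a library also turned the sign of Kit (log2 fold change -0.11 to 0.25), Nkg7 (-1.58 to 0.01), Cd3e (-1.68 to 0.09), Pf4 (-1.41 to 0.65), Itgb3 (-0.65 to 0.37), Gp1ba (-0.08 to 0.43) and Gp9 (-0.39 and -0.01 among -0.39 to 0.70).

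Within 50 kb the markers had 140 regions, 65 in all libraries, 9 in labelled Hira KO alone and 3 in labelled WT alone. At a -log10 q of at least 5, 2 were in labelled Hira KO alone. With a library left out these numbers were 40 to 48 regions, 18 to 28 in all, 4 to 14 and 0 to 1, and over the genome 7.32% to 23.7% and 4.73% to 11.8%, since fewer lists then decide. The cause of the other changes was not tested.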
